A study of Arabidopsis thaliana with 8 samples.

Results

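The 10 genes described here encode JAZ (JASMONATE ZIM-DOMAIN) proteins, the repressors of jasmonate signalling in Arabidopsis thaliana. JAZ1 (AT1G19180), JAZ2 (AT1G74950), JAZ3 (AT3G17860), JAZ5 (AT1G17380), JAZ6 (AT1G72450), JAZ7 (AT2G34600), JAZ8 (AT1G30135), JAZ9 (AT1G70700), JAZ10 (AT5G13220) and JAZ12 (AT5G20900) were taken by their locus identifiers, and 10 of 10 were present among the 21960 genes of the tables. They were chosen by identifier from a list made when the changes of jasmonate genes in all 3 comparisons with Col-0 were already known, so their levels and differences are given as a description and support nothing by themselves. JAZ4, JAZ11 and JAZ13 were not on that list and are given with the rest of the family.

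RNA was sequenced from leaves of untreated, 4-week-old plants of the Col-0 ecotype, kept in days of 16 h of light and 8 h of darkness. The study addressed microProteins, small proteins with a single B-Box that bind CONSTANS (CO), a transcription factor that promotes flowering in long days, and asked how far the transcriptomes of plants with too much microProtein resemble that of plants without CO. The 4 genotypes were wild-type Col-0, co-SAIL, an insertion mutant of CO, and 35S::miP1a and 35S::miP1b. The last 2 each overexpress 1 FLAG-tagged microProtein from the strong and widely active 35S promoter. The paper's methods do not state how many independent transgenic lines of each were sequenced. Each genotype had 2 libraries. The submitters name these pairs of libraries technical replicates in one place and samples of a plant type in another, so the errors given here compare these libraries and may not cover differences between plants.

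JAZ proteins bind MYC2 and related bHLH transcription factors and hold their target genes silent, most of them by recruiting the co-repressor TOPLESS through the adaptor NINJA. When jasmonoyl-isoleucine, the active hormone, accumulates after wounding or attack by chewing insects, it joins the F-box protein COI1 to the JAZ proteins, which are then ubiquitinated and degraded. Many JAZ genes are themselves transcribed in response to jasmonate, by MYC factors that bind G-box and related motifs, so that new repressor is made while the old is destroyed.

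Reads of each gene were summed over the 2 libraries of a genotype, and a level is given as CPM, the reads divided by the effective total in units of 1000000 reads. That total was 31599570 reads in co-SAIL, 33523489 in 35S::miP1a, 35777019 in 35S::miP1b and 34528907 in Col-0. In the libraries of their own lines, miP1a had 125309 reads, against 24 reads in Col-0, and miP1b had 35462 reads, against 3 reads in Col-0. FT, the CO target that carries the flowering signal, had 19 reads in co-SAIL, 0 in 35S::miP1a, 1 in 35S::miP1b and 333 in Col-0. CO itself had 176 reads in co-SAIL and 170 in Col-0, so its read count does not tell the mutant from the wild type. The 6 leaf markers had summed levels of 43300 CPM in co-SAIL, 46000 CPM in 35S::miP1a, 45400 CPM in 35S::miP1b and 40400 CPM in Col-0. They were uneven, from 700 reads for LHCB2.1 to 688961 for RBCS1A in Col-0. The summed reads of 5 flower markers were 15 to 22 per genotype, those of 3 root markers 0 to 2, and the 3 shoot meristem markers had no row. In bulk leaves, more cells with a transcript and more transcript per cell cannot be told apart.

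The members lie on chromosomes 1, 2, 3 and 5 and encode proteins of 131 residues for JAZ8 up to 352 for JAZ3 in the RefSeq annotation of TAIR10.1, with 1 to 7 annotated transcripts. JAZ10, which is known for splice forms that resist degradation, has 7 of them, and reads counted per gene do not separate these forms. No stretch of 30 bases in the exons of a member occurs in the exons of another member. The annotation places 1 gene, AT5G02045, on the opposite strand of JAZ10, and 2 genes, AT5G03235 and AT5G20910, on the opposite strand of JAZ12, and no source used here says that the counting used strand, so part of the reads of JAZ10 and JAZ12 may be those of their neighbours. The other 8 members overlap no annotated gene.

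The 300 bases before the annotated start of 9 members were searched on both strands for the G-box CACGTG, for the T/G-box AACGTG and for the CO-responsive element, TGTGNNATG or TGTGNNNATG. A G-box lay before JAZ2, JAZ3, JAZ7 and JAZ8, which are 4 of these 9 members, and 7.09% of 27443 promoters of the same length hold one. A T/G-box lay before JAZ3, JAZ5, JAZ6 and JAZ12, again 4 of 9 members, against 8.71% of all promoters. The CO-responsive element was found before JAZ6 alone, against 8.39% of all promoters. JAZ9 and JAZ10 held none of these letters in the window. A match of letters is no evidence that a factor binds there.

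The windows of JAZ3, JAZ5 and JAZ10, which were higher in 35S::miP1a at the threshold explained below, are printed here, with that of JAZ2, a member with a G-box whose level varied least between the genotypes. They come from TAIR10.1 and run 5′ to 3′ on the strand of the gene, and capitals mark G-boxes and T/G-boxes. The JAZ3 window is chr3:6119407-6119706 on the plus strand, that of JAZ5 is chr1:5957512-5957811 on the minus strand, that of JAZ10 is chr5:4218486-4218785 on the plus strand and that of JAZ2 is chr1:28150447-28150746 on the minus strand.
JAZ3: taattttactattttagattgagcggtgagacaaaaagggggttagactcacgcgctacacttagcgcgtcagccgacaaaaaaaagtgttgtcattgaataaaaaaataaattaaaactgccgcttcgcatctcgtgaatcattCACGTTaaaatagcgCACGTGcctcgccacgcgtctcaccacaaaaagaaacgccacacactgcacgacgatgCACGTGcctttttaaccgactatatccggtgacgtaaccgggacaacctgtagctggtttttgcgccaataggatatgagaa
JAZ5: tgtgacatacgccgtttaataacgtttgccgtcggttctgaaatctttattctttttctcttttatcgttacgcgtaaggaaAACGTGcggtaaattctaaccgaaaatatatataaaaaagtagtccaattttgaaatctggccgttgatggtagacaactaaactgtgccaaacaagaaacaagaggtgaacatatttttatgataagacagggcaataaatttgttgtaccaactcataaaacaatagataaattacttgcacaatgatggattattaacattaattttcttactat
JAZ10: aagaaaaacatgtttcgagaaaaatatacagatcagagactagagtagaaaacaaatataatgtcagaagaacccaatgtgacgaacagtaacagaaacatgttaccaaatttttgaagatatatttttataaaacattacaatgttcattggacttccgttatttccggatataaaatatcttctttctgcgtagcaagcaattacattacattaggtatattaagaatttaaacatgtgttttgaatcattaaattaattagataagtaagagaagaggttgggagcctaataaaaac
JAZ2: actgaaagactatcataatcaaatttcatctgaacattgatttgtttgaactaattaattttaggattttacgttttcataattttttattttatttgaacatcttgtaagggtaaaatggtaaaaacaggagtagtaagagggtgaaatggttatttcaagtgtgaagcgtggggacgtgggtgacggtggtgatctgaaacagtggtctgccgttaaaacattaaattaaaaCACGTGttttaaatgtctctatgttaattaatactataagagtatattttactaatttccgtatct
JAZ3 carries 2 G-boxes, with first bases 140 and 82 bases before the start, and a T/G-box at 155 bases, read as CACGTT on the strand shown. JAZ5 carries 1 T/G-box at 218 bases, JAZ2 has 1 G-box at 66 bases, and the window of JAZ10 is entirely in lower case.

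**Figure D1:**
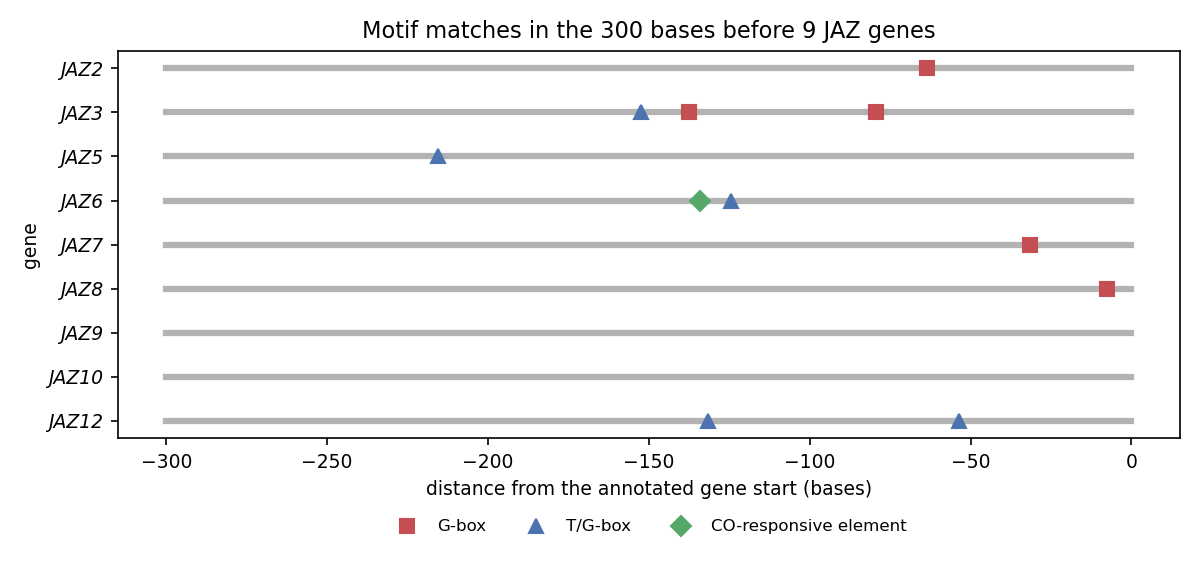
The plot shows, for 9 JAZ genes, where a G-box, a T/G-box or a CO-responsive element lies, with the distance from the annotated gene start in bases on the x axis. The 300 bases before JAZ9 and JAZ10 hold none of the 3 motifs, and JAZ3 holds 3 matches.

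The 10 members differed widely in level. Per kilobase of exon, the levels in Col-0 were 35.9 CPM for JAZ12, 34.0 for JAZ6, 29.7 for JAZ9, 18.5 for JAZ2, 12.5 for JAZ1 and 3.07 for JAZ3, and then 0.357 for JAZ10, 0.288 for JAZ5, 0.176 for JAZ7 and 0 for JAZ8. The summed level of the 10 genes was 259 CPM in co-SAIL, 344 CPM in 35S::miP1a, 250 CPM in 35S::miP1b and 224 CPM in Col-0, or 1.16, 1.53 and 1.12 times the Col-0 sum in the 3 lines in the same order. JAZ6, JAZ9 and JAZ12 gave 75.2% of the reads of that sum in co-SAIL, 70.4% in 35S::miP1a, 74.6% in 35S::miP1b and 74.1% in Col-0. In 9 of 10 members the highest level was in 35S::miP1a, and the exception was JAZ8, with at most 5 reads in any genotype. For JAZ2, JAZ3, JAZ7, JAZ9 and JAZ12, 35S::miP1a and the next genotype did not differ beyond their interval. The share of all genes that were highest in 35S::miP1a was not counted, so nothing is read from the 9 of 10.

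**Figure D2:**
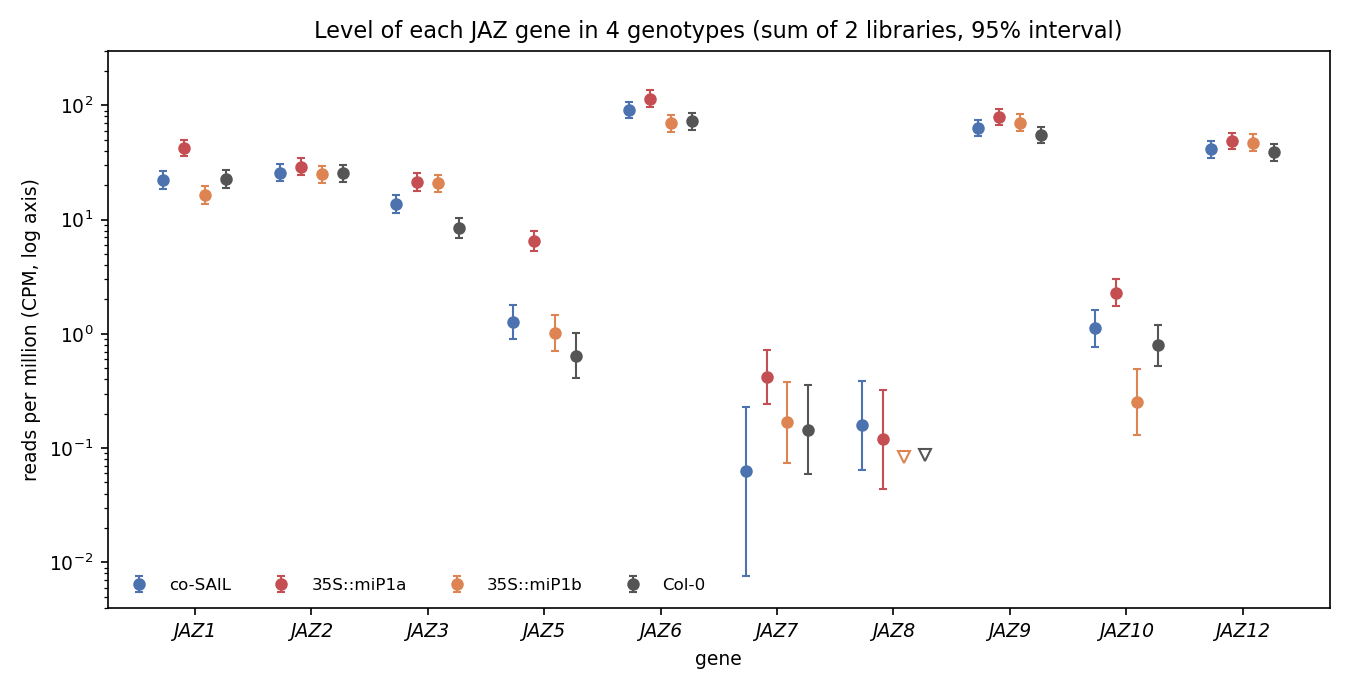
The level of each JAZ gene is plotted in CPM on a log axis for co-SAIL, 35S::miP1a, 35S::miP1b and Col-0. Points are sums over 2 libraries and bars are 95% intervals from counting error and the dispersion common to all genes, while open triangles mark 0 reads and stand at the level of 3 reads. The point of 35S::miP1a is the highest for every gene but JAZ8, though for JAZ2, JAZ3, JAZ7, JAZ9 and JAZ12 not beyond the interval.

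A gene was called higher or lower when the negative binomial likelihood ratio test, adjusted by Benjamini-Hochberg over all 21960 genes, gave an FDR below 0.001. Standard errors (SE) and 95% intervals of the log2 differences cover the counting error and a dispersion of 0.0133, which is a coefficient of variation of 11.5% between libraries and was taken as the same for all genes. With 3 or fewer reads a gene was treated as at the floor of the measurement, which is 0.0949 CPM in co-SAIL, 0.0895 CPM in 35S::miP1a, 0.0839 CPM in 35S::miP1b and 0.0869 CPM in Col-0. These intervals rest on reads and on that single dispersion, since values per library were not analysed here.

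In 35S::miP1a, 4 of 10 members were called higher than in Col-0, JAZ5, JAZ10, JAZ3 and JAZ1, and 0 were called lower. Of all genes, 1.97% were called higher and 1.44% lower in that comparison, and since these contrasts were known when the members were chosen, nothing is read from the count. JAZ5 was the 1 member that was also at least 4-fold higher, as were 0.565% of all genes. The median log2 difference of the 10 members was 0.78, against -0.01 for all genes above the floor. The level was above that of Col-0 in 10 of 10 members, against 48.9% of all genes above the floor.

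In 35S::miP1b, 1 of 10 members, JAZ3, was called higher than in Col-0 and 0 were called lower, beside 0.974% and 3.67% of all genes. The median log2 difference was 0.21 over the 9 members above the floor, against -0.01 for all genes. The level was above that of Col-0 in 5 of the 9, against 49.1% of all genes above the floor. At an assumed dispersion of 0.04, a coefficient of variation of 20%, JAZ5 in 35S::miP1a was the 1 call against Col-0 left among the members in both overexpression lines. At that dispersion 248 of all genes were called in 35S::miP1a and 437 in 35S::miP1b. In co-SAIL, 0 members were called in either direction, beside 0.187% of all genes called higher and 0.988% called lower. At an unadjusted p under 0.05 of the same test, 3 members differed between co-SAIL and Col-0 (JAZ3, JAZ5 and JAZ8), against 12.4% of all genes. The members' median log2 difference in co-SAIL was 0.26.

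**Figure D3:**
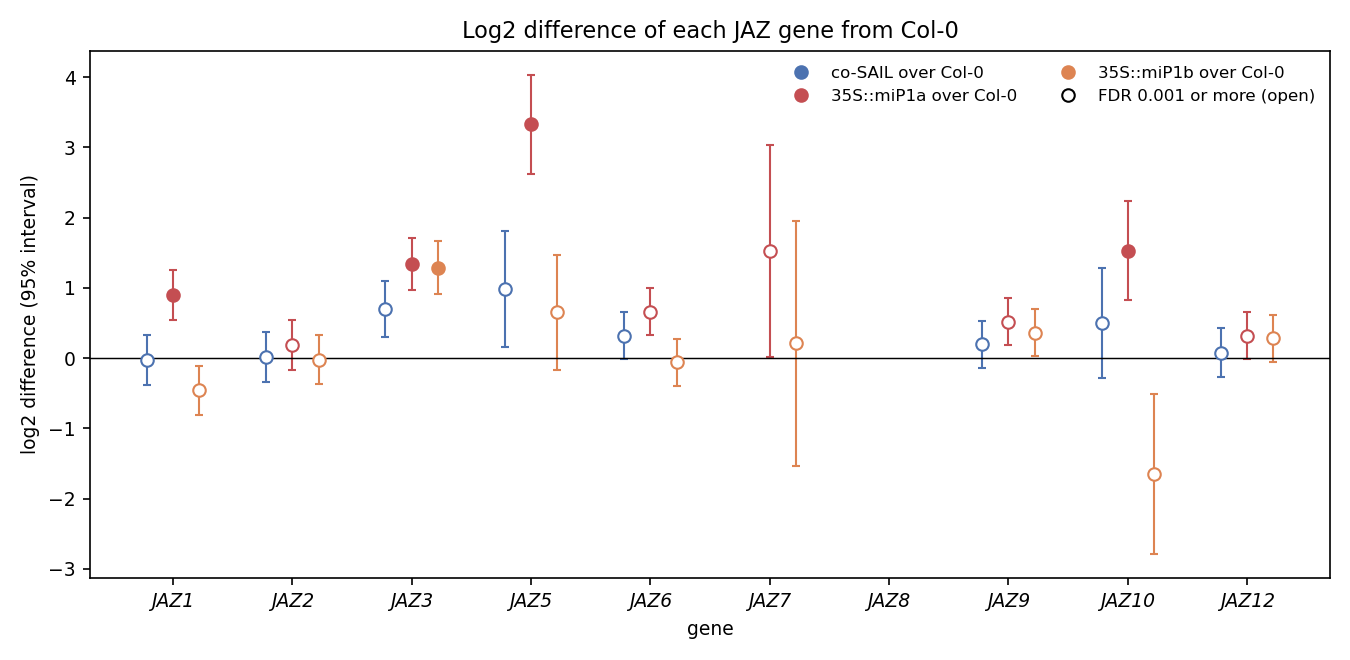
The log2 difference of each JAZ gene is shown for co-SAIL, 35S::miP1a and 35S::miP1b over Col-0, with bars for the 95% interval. Filled points passed an FDR of 0.001 and open points did not, and genes with 3 or fewer reads in either genotype are left out. JAZ3 has filled points in both overexpression lines, and JAZ1, JAZ5 and JAZ10 in 35S::miP1a alone.

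JAZ5 and JAZ6 are a closely related pair, and both were highest in 35S::miP1a, with ranges of unlike size. The 2 genes were not tested against each other. JAZ5 had 1.27 CPM (40 reads) in co-SAIL, 6.48 CPM (217 reads) in 35S::miP1a, 1.01 CPM (36 reads) in 35S::miP1b and 0.645 CPM (22 reads) in Col-0. The 95% interval of the level was 5.26 to 7.98 CPM in 35S::miP1a, above the intervals of co-SAIL (0.9 to 1.8 CPM), 35S::miP1b (0.703 to 1.45 CPM) and Col-0 (0.413 to 1.01 CPM), which overlap each other. The level rose in 35S::miP1a over Col-0 with a log2 difference of 3.33 (SE 0.36). In co-SAIL and 35S::miP1b the log2 differences from Col-0 were 0.98 (SE 0.42) and 0.65 (SE 0.42), which did not pass.

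Per kilobase of exon JAZ6 was the highest member in co-SAIL, at 42.5 CPM, and in 35S::miP1a, at 53.7 CPM. Without that division it had 90.5 CPM (2861 reads) in co-SAIL, 114.0 CPM (3832 reads) in 35S::miP1a, 69.3 CPM (2479 reads) in 35S::miP1b and 72.3 CPM (2497 reads) in Col-0. The log2 difference from Col-0 was 0.66 (SE 0.17) in 35S::miP1a, 0.32 (SE 0.17) in co-SAIL and -0.06 (SE 0.17) in 35S::miP1b, and none of the 3 passed. Down the order of the genotypes, the step from 35S::miP1a to co-SAIL was larger than its interval, and those from co-SAIL to Col-0 and from Col-0 to 35S::miP1b were not.

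JAZ1, one of the first members shown to be degraded through COI1, had 22.2 CPM (701 reads) in co-SAIL, 42.3 CPM (1418 reads) in 35S::miP1a, 16.5 CPM (590 reads) in 35S::miP1b and 22.6 CPM (781 reads) in Col-0. It rose 1.87-fold in 35S::miP1a over Col-0, a log2 difference of 0.90 (SE 0.18). In 35S::miP1b the log2 difference was -0.46 (SE 0.18), on the other side of Col-0, and did not pass. In co-SAIL it was -0.03, with a 95% interval of -0.39 to 0.33. Down the order of the genotypes, the steps from 35S::miP1a to Col-0 and from co-SAIL to 35S::miP1b were larger than their intervals. Only the first of these passed the FDR, and the step from Col-0 to co-SAIL was not larger than its interval.

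JAZ2, the closest relative of JAZ1, known for its role in the guard cells of stomata, varied least of the 10: it had 25.7 CPM (812 reads) in co-SAIL, 28.9 CPM (970 reads) in 35S::miP1a, 25.0 CPM (894 reads) in 35S::miP1b and 25.4 CPM (877 reads) in Col-0. No neighbours in this order differed beyond their intervals, and the log2 difference from Col-0 was 0.19 in 35S::miP1a, with a 95% interval of -0.16 to 0.54. Its window, printed above, holds a G-box.

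JAZ3 and JAZ9 are another related pair, and JAZ3 was found through the mutant jai3, in which a truncated, stable JAZ3 protein blocks jasmonate responses. JAZ3 had 13.7 CPM (432 reads) in co-SAIL, 21.4 CPM (717 reads) in 35S::miP1a, 20.7 CPM (739 reads) in 35S::miP1b and 8.45 CPM (292 reads) in Col-0. It was the 1 member called higher than Col-0 in both overexpression lines. The level was 2.53-fold that of Col-0 in 35S::miP1a and 2.45-fold in 35S::miP1b, with log2 differences of 1.34 (SE 0.19) and 1.29 (SE 0.19). In co-SAIL the log2 difference was 0.70 (SE 0.20), which did not pass. The levels of the 2 overexpression lines did not differ beyond their intervals. The steps down to co-SAIL and from there to Col-0 did, but neither step passed the FDR. These 3 comparisons share the Col-0 libraries.

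JAZ9 had 63.2 CPM (1998 reads) in co-SAIL, 79.1 CPM (2653 reads) in 35S::miP1a, 70.6 CPM (2525 reads) in 35S::miP1b and 55.1 CPM (1904 reads) in Col-0. Its log2 difference from Col-0 was 0.52 (SE 0.17) in 35S::miP1a, 0.36 (SE 0.17) in 35S::miP1b and 0.20 (SE 0.17) in co-SAIL, none of which passed. The order of the genotypes was that of JAZ3, but no neighbours in it differed beyond their intervals.

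JAZ10, which dampens jasmonate responses once they have begun, was a low transcript in these leaves, with 1.12 CPM (35 reads) in co-SAIL, 2.29 CPM (77 reads) in 35S::miP1a, 0.253 CPM (9 reads) in 35S::miP1b and 0.791 CPM (27 reads) in Col-0. It rose 2.90-fold in 35S::miP1a over Col-0, a log2 difference of 1.53 (SE 0.36). In 35S::miP1b the log2 difference was -1.65 (SE 0.58), which did not pass. The 95% intervals of the level were 1.74 to 3.02 CPM in 35S::miP1a and 0.129 to 0.494 CPM in 35S::miP1b, with that of Col-0, 0.526 to 1.19 CPM, between them. The gene AT5G02045 on the other strand may contribute to these counts.

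JAZ12, a member that is bound and kept stable by the ubiquitin ligase KEG, had 41.1 CPM (1298 reads) in co-SAIL, 48.5 CPM (1627 reads) in 35S::miP1a, 47.0 CPM (1681 reads) in 35S::miP1b and 38.8 CPM (1339 reads) in Col-0. The log2 differences from Col-0 were 0.32 (SE 0.17) in 35S::miP1a, 0.28 (SE 0.17) in 35S::miP1b and 0.08 (SE 0.18) in co-SAIL, and no neighbours in the order differed beyond their intervals.

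JAZ7 and JAZ8 are short proteins that carry their own EAR motif for binding TOPLESS, and JAZ8 lacks the canonical degron that COI1 recognises. Both were near the floor. JAZ7 had 2 reads in co-SAIL, 14 in 35S::miP1a, 6 in 35S::miP1b and 5 in Col-0, and its log2 difference in 35S::miP1a from Col-0 was 1.52 (SE 0.77), which did not pass. In co-SAIL the ratio to Col-0 was 0.437, with an exact 95% counting interval of 0.0416 to 2.67. JAZ8 had 5 reads in co-SAIL, 4 in 35S::miP1a, 0 in 35S::miP1b and 0 in Col-0. With Col-0 set to the floor of 3 reads, the ratio of JAZ8 to Col-0 would be 1.82 in co-SAIL and 1.37 in 35S::miP1a. These ratios leave out the counting error of the 5 and 4 reads and are no lower limits. The 95% intervals of the levels overlap that of Col-0, and neither difference passed. A change of JAZ8 between 35S::miP1b and Col-0 was not detectable at this depth.

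Between the overexpression lines, 4 of 10 members were called lower in 35S::miP1b than in 35S::miP1a (JAZ1, JAZ5, JAZ6 and JAZ10) and 0 were called higher, beside 2.89% of all genes called lower and 0.323% called higher. The level of JAZ10 in 35S::miP1b was 0.110 times that in 35S::miP1a, a log2 difference of -3.18 (SE 0.53). That of JAZ5 was 0.156 times the level in 35S::miP1a (log2 difference -2.68, SE 0.31), that of JAZ1 was 0.390 times (-1.36, SE 0.18) and that of JAZ6 was 0.606 times (-0.72, SE 0.17). JAZ6 lost this call at an assumed dispersion of 0.04 (FDR 0.25), and the other 3 lost it at 0.16. For JAZ3 the log2 difference was -0.05, with a 95% interval of -0.41 to 0.31, for JAZ9 -0.17 (interval -0.50 to 0.17), for JAZ12 -0.05 (interval -0.39 to 0.29) and for JAZ2 -0.21 (interval -0.56 to 0.14). The members' median was -0.62, against 0.00 for all genes.

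Against co-SAIL, 2 of 10 members were called higher in 35S::miP1a, JAZ5 with a log2 difference of 2.35 (SE 0.30) and JAZ1 with 0.93 (SE 0.18), and 0 were called lower, beside 2.39% and 0.965% of all genes. JAZ1 lost the call at a dispersion of 0.04, and JAZ5 at 0.16. JAZ10 had a log2 difference of 1.04 (SE 0.34) and JAZ3 one of 0.64 (SE 0.19) in this comparison, and neither passed. In 35S::miP1b, 0 members were called higher or lower than in co-SAIL, beside 0.574% and 1.94% of all genes. At an unadjusted p under 0.05 of the same test 5 members differed there (JAZ1, JAZ3, JAZ6, JAZ8 and JAZ10), against 19.1% of all genes. JAZ10 was the nearest to the threshold, with a log2 difference of -2.14 (SE 0.56) in 35S::miP1b from co-SAIL, and it passed when the p-values were adjusted over genes of at least 1 CPM and when the sums of reads served as library sizes.

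**Figure D4:**
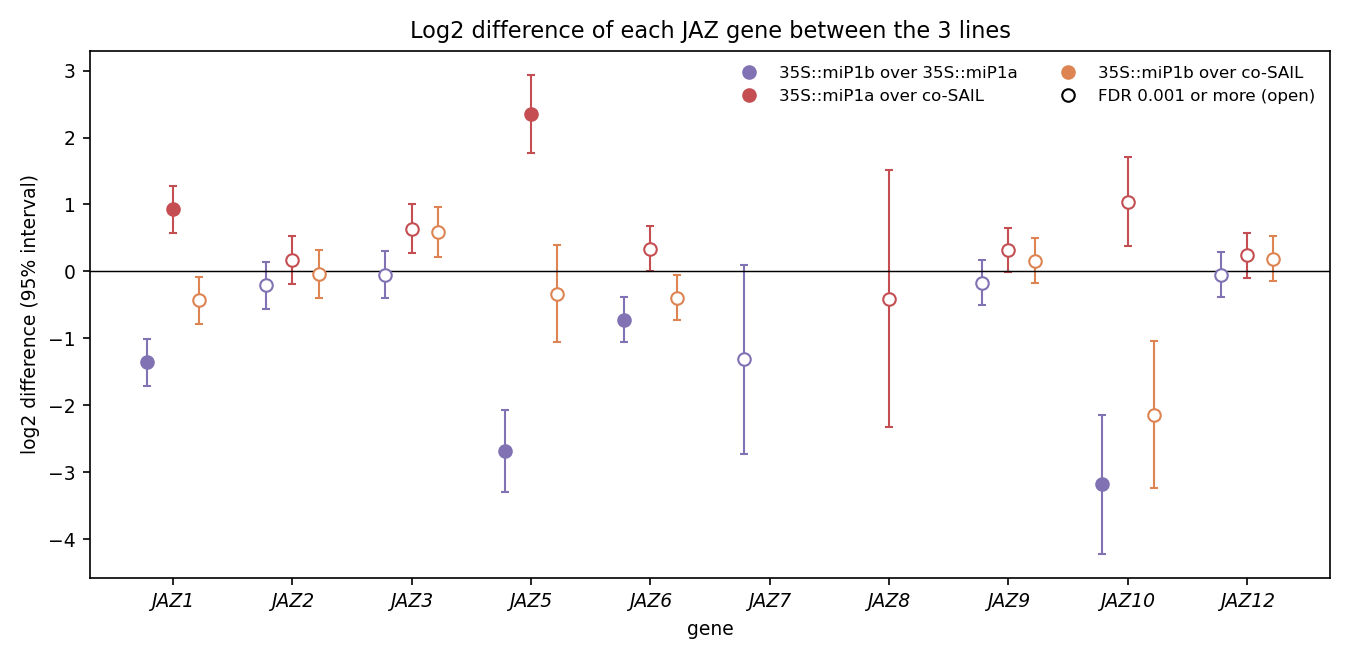
The log2 difference of each JAZ gene between the 3 lines is drawn with its 95% interval, filled where the FDR was below 0.001. In 35S::miP1b over 35S::miP1a the points of JAZ1, JAZ5, JAZ6 and JAZ10 are filled and below 0, and in 35S::miP1a over co-SAIL those of JAZ1 and JAZ5 are filled and above 0.

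JAZ5 had the widest range of the members with at least 1 CPM on average, and the genes of at least 10 CPM with the most similar profile over the 4 genotypes were listed by the Euclidean distance between centred log2 levels, over 11381 genes. The nearest was AT1G52000, annotated as a mannose-binding lectin superfamily protein, at a distance of 0.31, with 69.9 CPM in co-SAIL, 333 CPM in 35S::miP1a, 51.8 CPM in 35S::miP1b and 26.6 CPM in Col-0. TSA1 (distance 0.53), AT4G14090 (0.73), AT1G14250 (0.80) and BGLU18 (0.88) followed, and BGLU18, a beta-glucosidase of endoplasmic reticulum bodies, had 96.7 CPM in co-SAIL, 811 CPM in 35S::miP1a, 97.4 CPM in 35S::miP1b and 35.2 CPM in Col-0. With 4 genotypes the profiles have 4 values each, and the order is a description.

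The rest of the JAZ and TIFY family, 9 genes, had 0 members called in 35S::miP1a or co-SAIL. In 35S::miP1b 1 was called higher, beside 0.974% of all genes. That gene was TIFY8, with 2839 reads in 35S::miP1b and 1648 in Col-0, a log2 difference of 0.73 (SE 0.17). The medians of this list were -0.10 in co-SAIL, -0.04 in 35S::miP1a and -0.01 in 35S::miP1b. The median of all genes was -0.01 in each overexpression line. Like the members, this list and those below were chosen with earlier results of these data known, so their counts and medians are a description. JAZ4, JAZ11 and JAZ13 belong to the rest of the family and were singled out for their names. JAZ11 had 174 reads in co-SAIL, 161 in 35S::miP1a, 184 in 35S::miP1b and 231 in Col-0, with log2 differences from Col-0 of -0.28, -0.48 and -0.38 in the 3 lines in that order (SE 0.22 each), so it lay below Col-0 in 35S::miP1a where the 10 members lay above. JAZ4 had 11, 12 and 26 reads in these lines and 8 reads in Col-0, and JAZ13 had 4 or fewer reads in each genotype.

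Of the receptor and co-repressor complex, 12 genes that include COI1, NINJA and TOPLESS, 0 were called in co-SAIL or 35S::miP1b. In 35S::miP1a 1 was called higher, beside 1.97% of all genes. It was TPR1, a relative of TOPLESS, with 1947 reads in 35S::miP1a and 1152 in Col-0 (log2 difference 0.80, SE 0.17). Of 9 transcription factors bound by JAZ proteins, 1 was called lower in 35S::miP1a, and 1 higher and 1 lower in 35S::miP1b. The shares of all genes were 1.44% lower in 35S::miP1a, and 0.974% higher and 3.67% lower in 35S::miP1b. MYC5, known for its part in stamen development, had 104 reads in co-SAIL, 0 in 35S::miP1a, 6 in 35S::miP1b and 58 in Col-0, and bHLH14, a repressor of jasmonate responses, had 19, 95 and 179 reads in these lines in the same order and 47 reads in Col-0. With 35S::miP1a set to the floor of 3 reads, MYC5 would be at 0.0533 times its Col-0 level, leaving out counting error.

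Among 14 genes of jasmonate biosynthesis, 4 were called higher in 35S::miP1a and 0 lower, 1 higher and 1 lower in 35S::miP1b, and 0 in co-SAIL. The shares of all genes were 1.97% higher and 1.44% lower in 35S::miP1a, and 0.974% and 3.67% in 35S::miP1b. LOX2, the chloroplast lipoxygenase of the first steps, had 87299 reads in 35S::miP1a and 41927 in Col-0, a log2 difference of 1.10 (SE 0.17). AOC1, an allene oxide cyclase, had a log2 difference of 1.77 (SE 0.18) in 35S::miP1a from Col-0, while AOC3, of the same family, had one of -3.12 (SE 0.33) in 35S::miP1b. These cyclase genes are similar copies, and the counting may have split reads between them.

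Of 9 genes of jasmonate turnover, 5 were called higher in 35S::miP1a and 0 lower, with a median log2 difference of 1.62. Over all genes 1.97% were called higher and 1.44% lower, with a median of -0.01. JOX2, a jasmonate oxidase, had 509 reads in 35S::miP1a and 138 in Col-0 (log2 difference 1.93, SE 0.22). JOX3, of the same family, had 51 reads in 35S::miP1a and 0 in Col-0, and ST2A, a hydroxyjasmonate sulfotransferase, had 25 and 0 reads. With Col-0 set to the floor of 3 reads, the ratios would be 17.5 for JOX3 and 8.58 for ST2A, leaving out counting error. In 35S::miP1b 1 of the 9 was called lower and 0 higher, with a median of -0.16, and in co-SAIL 0 were called. Over all genes 3.67% were called lower in 35S::miP1b, with a median of -0.01.

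Of 12 output genes of the pathway, 6 were called higher in 35S::miP1a and 0 lower, with a median log2 difference of 1.41. In 35S::miP1b 3 were called lower and 0 higher, with a median of -0.76, and in co-SAIL 1 was called lower. Over all genes 1.97% were called higher in 35S::miP1a, and 3.67% lower in 35S::miP1b and 0.988% lower in co-SAIL. The median of all genes was -0.01 in each overexpression line. TAT3, an aminotransferase induced by jasmonate, had 533 reads in co-SAIL, 3682 in 35S::miP1a, 132 in 35S::miP1b and 1121 in Col-0, and it was called in all 3 comparisons with Col-0, higher in 35S::miP1a (log2 difference 1.76, SE 0.17) and lower in 35S::miP1b (-3.14, SE 0.21) and co-SAIL (-0.95, SE 0.18). NAC019 had a log2 difference of 3.15 (SE 0.36) in 35S::miP1a from Col-0. VSP2, a vegetative storage protein used as a marker of the pathway, had 34 reads in co-SAIL, 53 in 35S::miP1a, 5 in 35S::miP1b and 59 in Col-0. Its log2 difference from Col-0 was -3.60 (SE 0.69) in 35S::miP1b, and its level in 35S::miP1a, 1.57 CPM, was not above the 1.7 CPM of Col-0. Among the leaf markers LHCB2.1, of the photosystem antenna, was called higher in 35S::miP1a over Col-0 as well (log2 difference 1.41, SE 0.18), and its part in the values above was not tested.

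**Figure D5:**
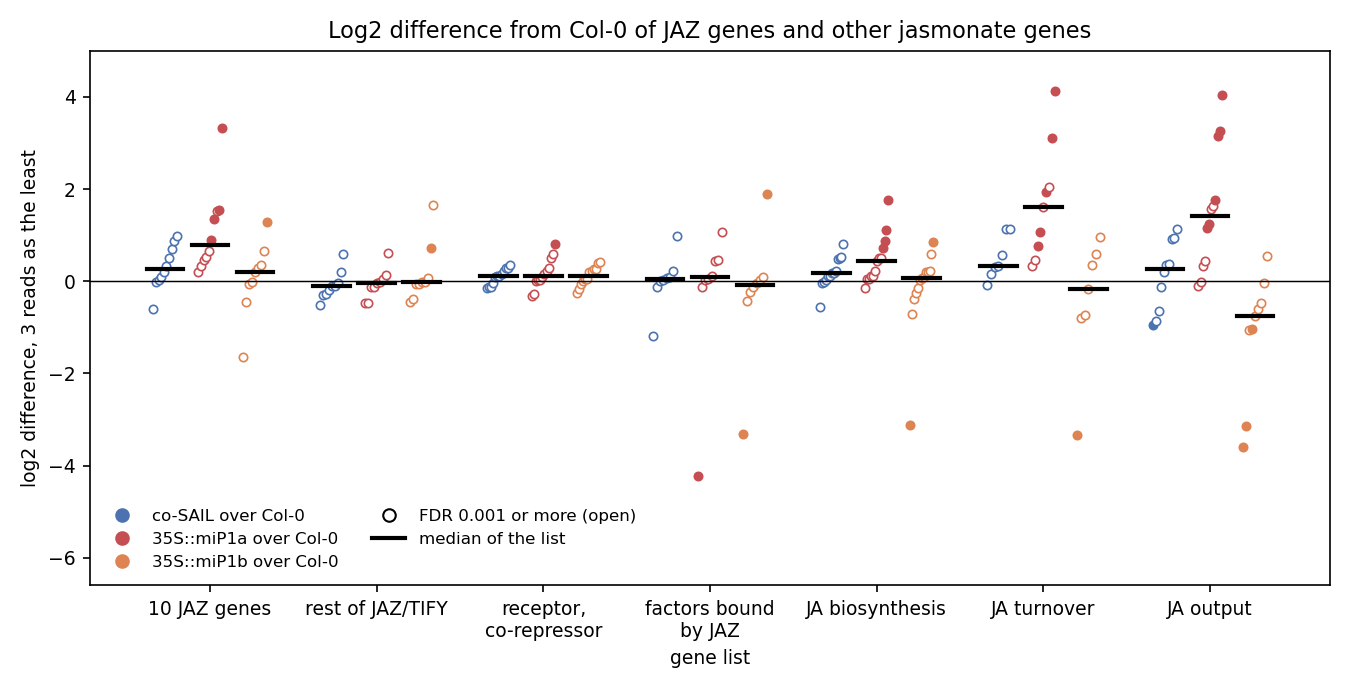
Each point is a gene, placed by its log2 difference from Col-0 with 3 reads as the least count, for the 10 JAZ genes and 6 other lists of jasmonate genes in co-SAIL, 35S::miP1a and 35S::miP1b. Filled points passed an FDR of 0.001, and the bars are medians. In 35S::miP1a the medians are 0.78 for the JAZ genes, 1.62 for turnover and 1.41 for output, and in 35S::miP1b they are 0.21, -0.16 and -0.76.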

How the data were processed

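RNA from leaves of 4 genotypes was sequenced in 2 libraries each. Per the paper's methods and the labels, the authors clipped the first 10 bases with Trimmomatic 0.32, mapped the reads to TAIR10 with Bowtie in RobiNA, with at most 2 mismatches in the seed, took counts for every gene and fitted them in edgeR 2.6.12. The log2 values the authors deposited in 3 tables are the fold change of Col-0 over a genotype and the mean CPM over 8 libraries. The deposited score is the likelihood ratio of each comparison, and the authors' p-values and FDR were not used. The fold changes, likelihood ratios and p-values are the authors' own results, and none is printed or compared here. The differences and calls given here were derived from those fold changes and likelihood ratios, as described next, and are not independent of them.

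Because no table of counts was used, the reads behind each value were solved from the fold changes and the mean CPM together, allowing for the prior count of 0.5 reads that the authors' edgeR fit divides among the libraries. Effective totals came from 353 genes with 1 read in all. Of 2772 genes with fewer than 20 reads, 100% of the recovered values were whole within 0.1, and of 2751 genes with 100 to 500 reads 44.4%. Reads are sums over both libraries of a genotype. The likelihood ratios served only to find the dispersion common to all genes, whose median over 4320 solutions was 0.0133 (10th to 90th percentile 0.0132 to 0.0134). The spread between libraries of single genes was not analysed here, and intervals cover counting error and this dispersion only.

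The negative binomial likelihood ratio test on these sums was run on all genes for 6 comparisons, 3 with Col-0 and 3 between the lines, with Benjamini-Hochberg adjustment over 21960 genes. Tested on simulated data for 35S::miP1a against Col-0 over 21734 genes, it called 100 of 100 genes changed 4-fold, 100 of 100 changed 8-fold and 0 unchanged genes, with libraries simulated at the same dispersion. The changed genes were drawn from well-covered genes only, and none was changed less than 4-fold. The simulation therefore does not show how often members with few reads, or smaller differences such as those of JAZ1, JAZ3 and JAZ10, would be called. The members and lists were chosen with earlier results of these data known. From each other list the text names at most 3 genes, those with the smallest p among the genes called against Col-0 in any line, and LHCB2.1 among the markers by the same rule. Genes nearest in profile were taken for the member of at least 1 CPM with the widest range. JAZ4, JAZ11 and JAZ13 were named outside that rule, after their values were seen. Promoters, exons and protein lengths came from the RefSeq annotation of TAIR10.1, joined by locus identifier, and the promoter of 1 member is not reported here. Alternatives were another FDR, a minimum fold change of 4, dispersions of 0.04 and 0.16, other scalings, a prior count of 2 reads and an adjustment over genes of at least 1 CPM. The scripts ran in SciPy 1.17.1 with pandas 2.3.3, NumPy 2.4.6 and matplotlib 3.10.9 under Python 3.11.15.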

Additional observations from a re-analysis of the deposited data

Results flagged for a closer look

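JAZ1, JAZ6 and JAZ10 lay above Col-0 in 35S::miP1a and below Col-0 in 35S::miP1b, and the difference between the 2 overexpression lines itself passed an FDR of 0.001. The log2 difference of 35S::miP1b from 35S::miP1a was -1.36 for JAZ1, -0.72 for JAZ6 and -3.18 for JAZ10, and that of JAZ6 did not pass at an assumed dispersion of 0.04 (FDR 0.25). Of these 3 genes, JAZ1 and JAZ10 passed against Col-0 in 35S::miP1a, none passed against Col-0 in 35S::miP1b, and the log2 difference of JAZ6 in 35S::miP1b from Col-0 was -0.06, with a 95% interval of -0.40 to 0.27. The 3 members were part of a list made with these results known, so the values are a description.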

How the results depend on the processing

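With no scaling did the median gene shift by more than 0.07 on the log2 scale. Of 260 recomputed single log2 differences of members, 243 kept their side of the threshold. The call was lost in 16, all 16 at a larger dispersion, and gained in 1, and 0 called differences reversed. Uncalled differences near 0 could change sign. That of JAZ2 in co-SAIL from Col-0 went from 0.02 to -0.04 with sums of reads as library sizes. By construction, the dispersion settings leave the log2 difference unchanged and cannot add a call, and the prior count leaves the call unchanged. Many of the 243 could therefore not have moved, and their number does not measure how stable the calls are. At an FDR below 0.05, 1 member (JAZ3) was called in co-SAIL, 6 in 35S::miP1a, JAZ6 and JAZ9 among them, and 2 in 35S::miP1b against Col-0, and 5 in 35S::miP1a and 2 in 35S::miP1b against co-SAIL. Of all 21960 genes, 680, 2125, 2762, 1815 and 1723 were called in these comparisons, in the same order. With a minimum fold change of 4 there were 1 in 35S::miP1a and 0 in 35S::miP1b against Col-0, 2 in 35S::miP1b against 35S::miP1a and 1 in 35S::miP1a against co-SAIL. The counts over all genes were 192, 323, 320 and 218 in that order. A dispersion of 0.04, a coefficient of variation of 20%, left 1 member (JAZ5) in 35S::miP1a and 0 in 35S::miP1b against Col-0, 3 in 35S::miP1b against 35S::miP1a, without JAZ6, and 1 (JAZ5) in 35S::miP1a against co-SAIL. It left 248, 437, 388 and 309 of all genes in that order. A dispersion of 0.16, a coefficient of variation of 40%, left 1 member (JAZ5) in 35S::miP1a and 0 in 35S::miP1b against Col-0, 0 in 35S::miP1b against 35S::miP1a and 0 in 35S::miP1a against co-SAIL. It left 51, 88, 114 and 35 of all genes in that order. Adjusting over genes of at least 1 CPM, or taking sums of reads as library sizes, called 1 member (JAZ10) lower in 35S::miP1b than in co-SAIL. These 2 settings called 509 and 562 genes there in either direction. Fewer genes in the adjustment and a larger assumed spread are the construction of these settings. Leaving out single libraries and the replicate block were not run, since the values used here are sums of 2 libraries. No paired analysis was possible because no value per library was used. Reads limit JAZ7, JAZ8, JAZ10 and JAZ5 most, and a spread between plants larger than 11.5% would widen every interval.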
